A study of Homo sapiens with 8 samples.

Results

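The genes described here are the chemokines, the interleukins, the colony-stimulating factors CSF1 and CSF3 and the receptors of these families, in 4 human multiple myeloma cell lines with and without a knockdown of MMSET I. Members were the named genes whose symbol begins with that of a CC, CXC, CX3C or XC chemokine or its receptor, of a numbered interleukin or of a colony-stimulating factor from CSF1 to CSF3. CCL3 and CCR1 were left out of this set. There were 112 members among 14812 named genes: 22 CC chemokines, 15 other chemokines, 15 chemokine receptors, 27 interleukins, 21 interleukin receptor chains, 4 colony-stimulating factors or their receptors, 3 interleukin antagonists, 1 enzyme (IL4I1) and 4 noncoding RNAs or pseudogenes. The choice rests on symbols. IL6, IL6ST and IL2RG had no named row and were not analysed here.

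The lines KMS11, KMS18, KMS34 and OPM2 derive from multiple myeloma, a cancer of plasma cells, and carry the t(4;14) translocation per the labels. That translocation raises the expression of NSD2, also called MMSET, which encodes a histone methyltransferase and a shorter isoform named MMSET I. In each line 1 culture was infected with lentivirus for the MMSET I knockdown (ShMI) and 1 as a control, which gives 4 ShMI and 4 control arrays, 8 in all. All cultures received 8 µg/mL polybrene, the medium was changed 24 h after infection and RNA was taken 48 h later, while the series text gives 72 h of shRNA. What the control virus carried, and the shRNA sequence, is not given in the sources used here. Values are linear intensities of 1 transcript cluster (the probes along 1 gene) per member on Affymetrix Human Gene 2.0 ST arrays. Intensities of different genes rest on different probes and are not set against each other below.

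Chemokines are small secreted proteins that guide migrating cells through receptors coupled to G proteins, and are named after the spacing of conserved cysteines near their amino terminus. Interleukins carry signals between blood cells, most of them through receptor chains that activate JAK kinases and STAT transcription factors, those of the IL-1 and IL-17 families through adaptor proteins that lead to NF-kB. In the bone marrow, CXCL12 holds normal and malignant plasma cells through CXCR4, and IL-6 is a growth and survival factor of both. IL-21 drives B cells towards plasma cells.

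The promoters of members whose levels separate the lines are shown because these genes are the ones the line comparison turns on. A RefSeq promoter entry of the build GRCh38.p14 was held for 6 of the 9 members whose line means spanned at least 2-fold. Those of CCL5, CCR10 and CCL3L1 are named only. The sequences give the 250 bases before the transcript start, 5′ to 3′ on the strand of the gene. Capitals mark matches to an interferon response element core (GAAA, any 2 bases, GAAA) or to the NF-kB motif.
IL21R, chr16:27427021-27427270, plus strand: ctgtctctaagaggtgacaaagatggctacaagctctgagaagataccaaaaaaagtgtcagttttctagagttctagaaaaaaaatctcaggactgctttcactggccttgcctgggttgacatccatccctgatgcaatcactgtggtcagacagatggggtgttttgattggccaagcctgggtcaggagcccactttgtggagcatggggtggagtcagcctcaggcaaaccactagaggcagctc
IL32, chr16:3065153-3065402, plus strand: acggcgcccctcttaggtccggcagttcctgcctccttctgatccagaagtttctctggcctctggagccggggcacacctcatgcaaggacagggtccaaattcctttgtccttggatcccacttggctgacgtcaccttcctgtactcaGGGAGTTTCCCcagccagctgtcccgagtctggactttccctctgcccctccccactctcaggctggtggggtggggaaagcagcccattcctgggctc
CXCL10, chr4:76023498-76023747, minus strand: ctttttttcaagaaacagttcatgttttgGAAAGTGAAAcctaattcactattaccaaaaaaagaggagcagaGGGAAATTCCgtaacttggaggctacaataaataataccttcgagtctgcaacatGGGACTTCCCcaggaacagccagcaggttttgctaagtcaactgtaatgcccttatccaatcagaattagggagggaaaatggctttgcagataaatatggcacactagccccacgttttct
IL17RB, chr3:53846318-53846567, plus strand: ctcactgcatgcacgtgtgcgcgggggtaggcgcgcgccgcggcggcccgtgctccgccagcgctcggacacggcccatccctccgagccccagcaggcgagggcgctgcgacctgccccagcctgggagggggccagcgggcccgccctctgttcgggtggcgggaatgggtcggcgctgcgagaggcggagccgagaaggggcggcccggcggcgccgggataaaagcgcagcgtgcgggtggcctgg
IL6R, chr1:154405093-154405342, plus strand: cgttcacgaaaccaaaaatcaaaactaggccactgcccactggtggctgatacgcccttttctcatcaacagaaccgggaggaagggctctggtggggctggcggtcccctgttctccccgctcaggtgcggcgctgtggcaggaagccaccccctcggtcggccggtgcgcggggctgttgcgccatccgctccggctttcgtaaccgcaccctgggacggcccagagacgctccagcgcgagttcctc
IL1RAP, chr3:190513835-190514084, plus strand: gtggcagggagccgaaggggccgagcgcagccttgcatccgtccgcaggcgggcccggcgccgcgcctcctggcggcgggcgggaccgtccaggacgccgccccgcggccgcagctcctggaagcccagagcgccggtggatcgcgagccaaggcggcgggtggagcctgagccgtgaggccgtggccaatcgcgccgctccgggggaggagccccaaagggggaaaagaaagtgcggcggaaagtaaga

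Both strands were searched for 5 motifs. The CXCL10 promoter held 1 match to the interferon response core, which begins 221 bases before the start, and 2 matches to NF-kB, which begin 177 and 122 bases before it. In IL32 there were 2 overlapping NF-kB matches, which begin 99 and 98 bases before the start. The other 4 windows held no match to either, and all 6 held none to a TATA box (TATAAA), a STAT site (TTCNNNGAA) or an AP-1 site (TGACTCA). Among 35097 promoters of the same length, 3.02% held the interferon response core, 9.95% NF-kB, 10.72% the TATA box, 6.56% the STAT site and 4.20% the AP-1 site. Base composition differed between the windows: IL17RB had 35 CpG and 77.6% G and C, IL1RAP 33 and 74.8%, and IL6R 22 and 65.2%. CXCL10 had 3 CpG and 40.8% G and C, IL32 had 6 and 60.8%, and IL21R 0 and 49.2%, against a median of 11 CpG and 58.0% over all promoters. The IL21R entry belongs to a transcript that begins 25097 bases inside the annotated gene. These matches are a description of the letters, and binding was not measured.

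The targeted gene and the labelled cell type were checked first. NSD2 had a mean intensity of 656 ± 75.9 in ShMI arrays and 743 ± 55.2 in controls (SD, n = 4 each), a log2 difference of -0.18 (limma adjusted p = 0.472), read from a row of the whole gene that names no isoform. By line its difference was -0.13 for KMS11, -0.31 for KMS18, -0.14 for KMS34 and -0.16 for OPM2. GLO1, the gene named in the series title, had 566 ± 125 in ShMI arrays and 946 ± 129 in controls, a log2 difference of -0.76 (limma adjusted p = 0.00142). Of 9 plasma cell markers, 6 had a named row and all 6 were above the brightness limit used below on at least 1 array. Their summed intensity was 7755 to 11187 in ShMI arrays and 8038 to 10795 in controls. Among them, CD38 had ShMI and control intensities of 83.2 and 50.6 in KMS11 and 365 and 416 in KMS18. Its values were 168 and 168 in KMS34 and 278 and 251 in OPM2. The markers of other cells had sums of 288 to 344 in ShMI arrays and 256 to 335 in controls for 4 T and NK markers, and of 294 to 358 and 315 to 365 for 5 myeloid markers, of which CD14, LYZ and S100A8 stayed under the limit on all arrays and S100A9 and CD68 were above it on all. All 4 T and NK markers and both B cell markers were above the limit on at least 1 array. The 1 named stromal and endothelial marker, VWF, was above it on all, at 51.3 to 62.3 in ShMI arrays and 49.5 to 54.8 in controls. The 2 B cell markers summed to 121 to 288 in ShMI arrays and 111 to 219 in controls, and CR2 had a log2 difference of 0.28 between ShMI and control (limma adjusted p = 0.379). Arrays of the same line correlated at 0.991 to 0.993 across genes and arrays of different lines at 0.880 to 0.915.

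A member was tested where its mean log2 intensity reached the 25th percentile of all named genes, an intensity of 46.7. This left 57 of the 112 members (50.9%), and 55 fell under it. The deposited table has no detection calls, so the limit does not say which genes were expressed. The first comparison asked how the levels of the members differed between the lines, whatever the treatment. It used limma's moderated F test with Benjamini-Hochberg adjustment over all 11109 genes above the limit and a threshold of 0.05. Each line has 1 ShMI and 1 control array and no replicates of either. The error of this test is therefore the spread of the ShMI-minus-control differences over the 4 lines, with 1 culture pair per line, and an SE of a difference between lines has the same source. In RNA of whole cultures, fewer expressing cells and less RNA per cell cannot be told apart.

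Levels of 32 of the 57 tested members (56.1%) differed between lines by the F test, against 75.7% of all tested genes. In 3 of the 32, CXCL10, CXCL14 and IL17RB, at least 1 line mean lay under the limit (9.38%, and 6.85% of all genes that passed), and in 29 all line means were above it. The line means of 9 members (15.8%) spanned at least 2-fold, against 18.8% of all genes. With line means under the limit set to it, 8 did (14.0%, and 18.5% of all genes), since IL17RB then spans 1.99-fold. The median range between the highest and the lowest line mean was 0.35 on the log2 scale for the members and 0.52 for all tested genes. The share that passed, the share that spanned 2-fold and the median range lay below those of all genes, and these differences were not tested. The members were also dimmer, since 50.9% of them and 75% of all genes reached the limit. With the limit at the 50th percentile of the 14812 named genes, 20 members were tested. Of these 20, 17 passed the F test and 6 spanned at least 2-fold. Of all genes at or above that limit, 6528 passed. The shares of members and of all genes that passed lay closer together there than with the main limit. How many of all genes spanned 2-fold at that limit was not counted. The part of brightness in the lower shares was not tested. The 9 whose line means spanned at least 2-fold were the receptor chains IL21R, IL6R, IL1RAP and IL17RB and the chemokine receptor CCR10. The others were the chemokines CCL5, CCL3L1 and CXCL10, and the cytokine IL32. All 9 also passed the F test, which adds no support, since they were picked by the same line means. Of these, CXCL10 and IL17RB had passed the limit only through KMS11 and KMS18. The count of members spanning 2-fold was also 9 when only the 4 ShMI arrays or only the 4 control arrays were used.

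**Figure D1:**
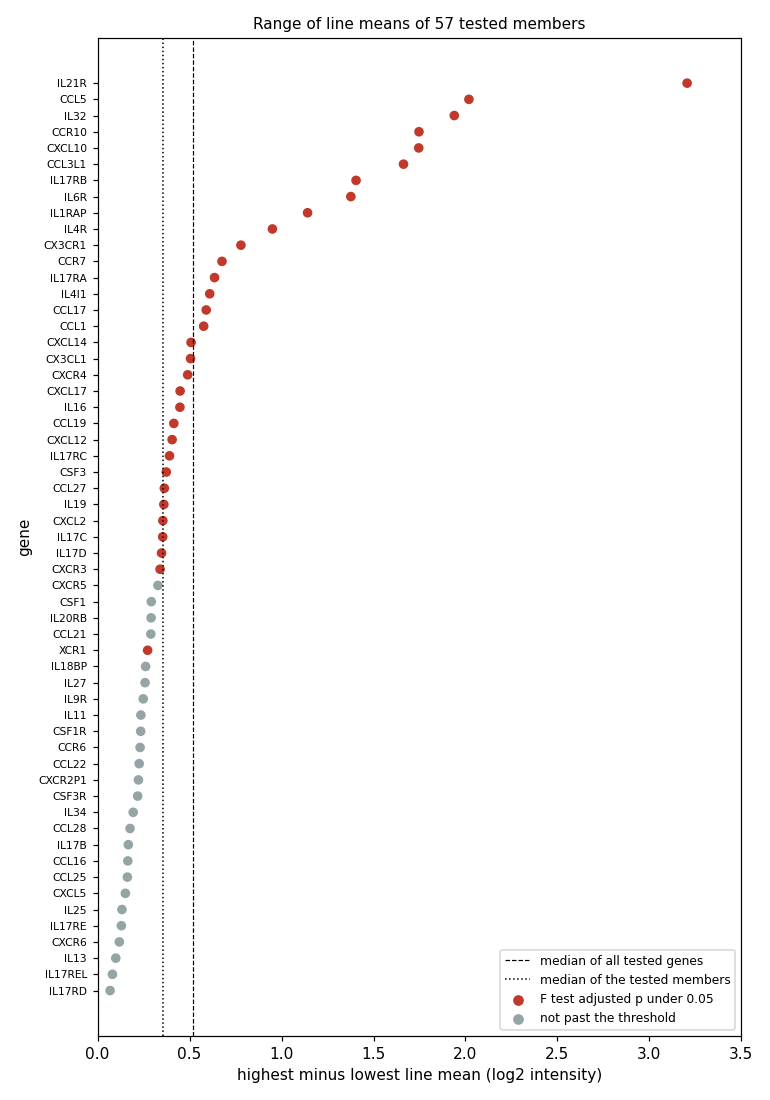
Each point is 1 of the 57 tested members, and the horizontal axis gives the highest minus the lowest line mean in log2 intensity. Red points passed the F test between lines (32 members), grey points did not, and the dashed and dotted lines mark the medians of all tested genes (0.52) and of the members (0.35). IL21R lies farthest to the right.

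Between pairs of lines (limma contrasts, adjusted p under the threshold), KMS11 and KMS18 differed in 28 members (56.5% of all genes), KMS11 and OPM2 in 27 (54.7%) and KMS34 and OPM2 in 21 (49.9%). KMS11 and KMS34 differed in 17 (42.2%), KMS18 and KMS34 also in 17 (47.5%), and KMS18 and OPM2 in 16 (38.9%).

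The lines differed in how many members stood at either end. KMS18 was highest in 14 of the 32 members that differed (43.8%, and 20.6% of all genes that differed) and lowest in 4 (12.5%, and 28.5%). KMS34 was highest in 3 (9.38%, and 24.6%) and lowest in 12 (37.5%, and 20.02%). KMS11 was highest in 6 (18.8%, and 31.4%) and lowest in 9 (28.1%, and 25.3%), and OPM2 highest in 9 (28.1%, and 23.4%) and lowest in 7 (21.9%, and 26.2%). These shares were not tested against each other. Against the mean of the other 3 lines, 9 tested members were higher and 16 lower in KMS11 (limma, adjusted p under the threshold), where 31.0% of all genes were higher and 24.5% lower. With arrays centred on their medians the KMS11 counts were 8 higher and 27 lower (24.9% and 37.2% of all genes), and with quantile normalization 8 and 16 (23.2% and 29.3%). In KMS18, 14 members were higher and 7 lower (19.4% and 28.9% of all genes), and after centring 20 were higher and 6 lower (26.9% and 25.1%), with quantile normalization 15 and 5 (25.8% and 23.4%). In KMS34, 3 were higher and 15 lower (24.4% and 20.9%), and in OPM2 14 were higher and 9 lower (22.6% and 26.1%). The deposited first quartile over all rows also differed between the lines. Its ShMI and control values were 29.6 and 29.5 in KMS11 and 30.1 and 29.9 in KMS34. They were 30.9 and 30.8 in KMS18 and 30.7 and 30.9 in OPM2. Medians over all rows were 49.3 to 51.2 in KMS11 and KMS34 and 53.0 to 53.55 in KMS18 and OPM2. Among the tested genes the order was the reverse, with median log2 intensities of 6.92 to 6.99 and of 6.86 to 6.87. The part of these offsets in the members' counts, and in the small line differences given below, was not tested.

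**Figure D2:**
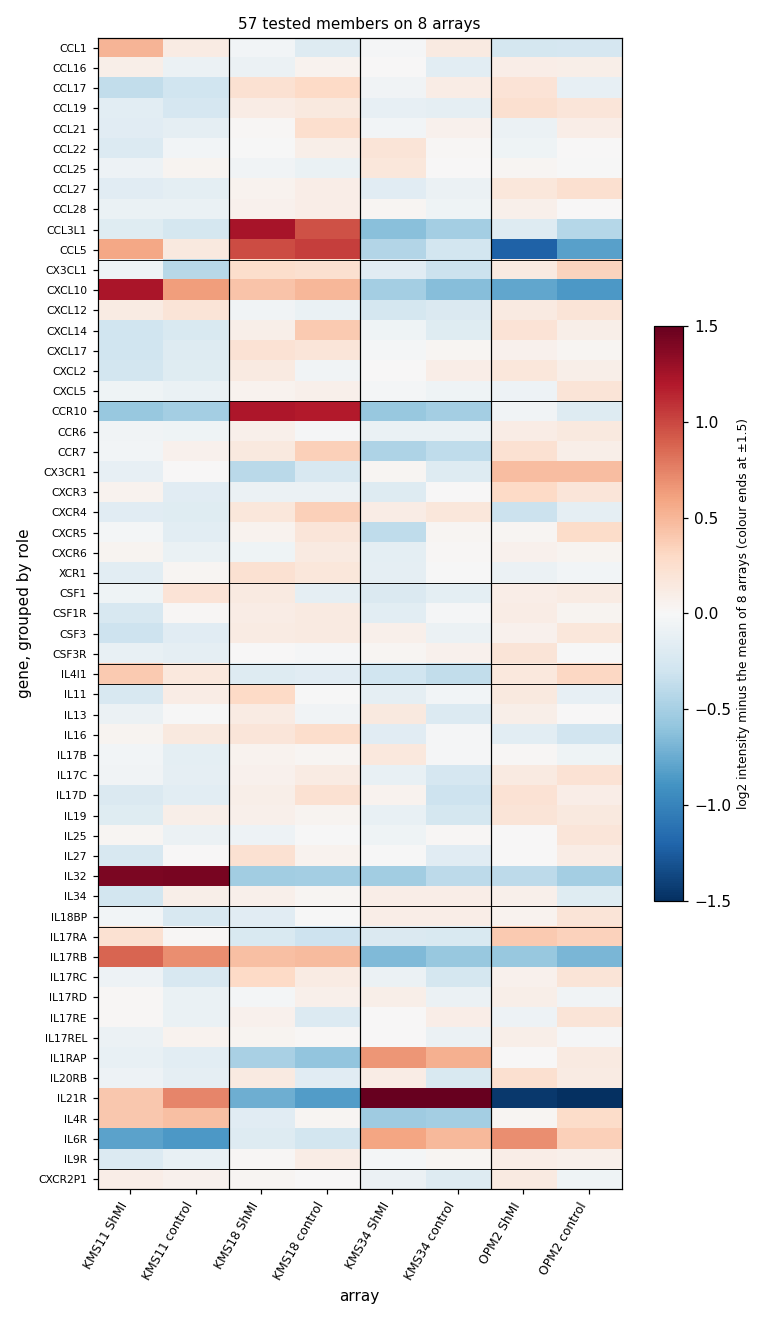
Rows are the 57 tested members grouped by role and columns are the 8 arrays, ShMI left of control in each line, with colour giving log2 intensity minus the mean of the 8 arrays. The strongest colours are shared by both arrays of a line, as for IL21R, IL32, CCR10 and CCL3L1, and most other rows are pale.

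Among the CC chemokines, 11 of 22 were tested. Of these, 6 differed between lines (54.5%, and 75.7% of all genes) and 2 spanned at least 2-fold (18.2%, and 18.8%). CCL5, which attracts T cells and monocytes, had ShMI and control intensities of 256 and 190.4 in KMS11, 339 and 350.3 in KMS18, 126 and 141 in KMS34 and 73.98 and 97.7 in OPM2. All 4 lines differed from each other in CCL5, in the order KMS18, KMS11, KMS34 and OPM2 (limma contrasts between neighbours, adjusted p = 0.00304, 0.00170 and 0.00321). The highest line mean was 4.05-fold the lowest (F test, adjusted p = 7.19e-07), 2.60-fold without KMS18 and 2.58-fold without OPM2. The 2 arrays of KMS11 and of OPM2 stood further apart than those of the other lines.

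CCL3L1, a near-identical copy of CCL3, had ShMI and control intensities of 121 and 115 in KMS11, 324 and 268 in KMS18, 89.4 and 96.7 in KMS34 and 121 and 102 in OPM2. KMS18 was higher than the mean of the other lines by 1.46 on the log2 scale with an SE of 0.0864 (limma adjusted p = 5.13e-08). Both KMS18 arrays lay above all 6 others, and without KMS18 the range was 1.27-fold. Its probes may also read CCL3, so the signal cannot be assigned to 1 of the copies.

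The other tested CC chemokines spanned less than 2-fold between lines. CCL17, a ligand of CCR4, was lowest in KMS11, at 76.7 with the knockdown and 80.8 in the control, and its line means spanned 1.51-fold (F test, adjusted p = 0.00370). CCL22, the other CCR4 ligand, spanned 1.17-fold and did not pass (F test, adjusted p = 0.209). CCL19, a ligand of CCR7, passed with 1.33-fold (F test, adjusted p = 0.00217), and CCL21, which binds the same receptor, did not (1.22-fold, adjusted p = 0.0666). CCL1, a ligand of CCR8, had ShMI and control intensities of 91.2 and 69.7 in KMS11, 62.5 and 56.04 in KMS18, 63.5 and 70.3 in KMS34 and 53.3 and 53.6 in OPM2. It spanned 1.49-fold and passed (F test, adjusted p = 0.00404). CCL16 and CCL25 did not pass (adjusted p of 0.488 and 0.438).

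Among the other chemokines, 7 of 15 were tested and 6 differed between lines (85.7%, and 75.7% of all genes). The 6 include CXCL10 and CXCL14, which passed the limit only through their brighter lines. The higher share is therefore not read as a trait of these chemokines. CXCL10, an interferon-induced ligand of CXCR3 whose promoter is printed above, had ShMI and control intensities of 136 and 89.8 in KMS11, 77.9 and 81.7 in KMS18, 40.7 and 37.4 in KMS34 and 33.9 and 32.1 in OPM2. Both KMS11 and KMS18 were above both KMS34 and OPM2, and KMS34 and OPM2 did not differ beyond their error (log2 difference 0.24 for KMS34 minus OPM2, limma adjusted p = 0.148). Because KMS34 and OPM2 lay under the limit of 46.7, the KMS11 line mean was at least 2.37-fold higher, taken against that limit. That mean takes in the ShMI array, and the KMS11 control alone, at 89.8, lay less than 2-fold above the limit. The gene passed the limit only through its level in KMS11 and KMS18, so it had to differ and its F test is not given as support. CXCL11, its direct neighbour among the protein-coding genes of chromosome 4, and CXCL9, with 1 gene between, are the other CXCR3 ligands. CXCL11 had 40.3 to 44.5 with the knockdown and 35.6 to 44.3 in the controls, CXCL9 had 24.98 to 31.3 with the knockdown and 24.7 to 28.3 in the controls, and both stayed under the limit on all arrays.

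CXCL12, the ligand of CXCR4, had intensities of 63.95 to 84.6 with the knockdown and 65.9 to 87.6 in the controls, and its line means spanned 1.32-fold, highest in OPM2 and KMS11 and lowest in KMS34 (F test, adjusted p = 0.00238). CXCL2, which attracts neutrophils, spanned 1.28-fold with its lowest line mean in KMS11 (F test, adjusted p = 0.0251), and CXCL5, of the same receptor group, did not pass (1.11-fold, adjusted p = 0.390). CX3CL1, the membrane-bound ligand of CX3CR1, had ShMI and control intensities of 85.6 and 66.9 in KMS11, 108 and 106 in KMS18, 79.3 and 71.5 in KMS34 and 98.3 and 112 in OPM2 (F test, adjusted p = 0.00151). Its 4 arrays in KMS18 and OPM2 were above the 4 in KMS11 and KMS34. CX3CL1 lies between CCL17 and CCL22 on chromosome 16 with no other protein-coding gene between them, and of these neighbours CCL17 and CX3CL1 passed and CCL22 did not. CXCL14 was lowest in KMS11, at 39.6 with the knockdown and 41.5 in the control, and highest in KMS18, at 51.9 with the knockdown and 64.1 in the control. KMS11 and KMS34 had line means under the limit, so CXCL14 also passed it only through the other lines. CXCL17, a chemokine of mucosal tissue, spanned 1.36-fold (F test, adjusted p = 0.00411).

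Of 15 chemokine receptors, 9 were tested and 6 differed between lines (66.7%, and 75.7% of all genes). CXCR4, the receptor that holds plasma cells in the marrow, had ShMI and control intensities of 1326 and 1319.8 in KMS11, 1682 and 1923 in KMS18, 1611 and 1681 in KMS34 and 1202 and 1366 in OPM2. KMS18 and KMS34 were above OPM2 and KMS11, with a span of 1.40-fold (F test, adjusted p = 0.000814). Neither the upper pair (log2 difference 0.13 for KMS18 minus KMS34, limma adjusted p = 0.269) nor the lower pair (0.05 for KMS11 minus OPM2, 0.688) differed beyond their error.

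CCR10, which guides antibody-secreting cells to epithelial tissue, had ShMI and control intensities of 80.8 and 83.8 in KMS11, 278 and 273 in KMS18, 80.4 and 83.8 in KMS34 and 115 and 104 in OPM2. KMS18 was higher than the mean of the other lines by 1.61 on the log2 scale with an SE of 0.0745 (limma adjusted p = 6.22e-09). Among the others, OPM2 was above KMS11 and KMS34, which were not told apart (log2 difference 0.00 for KMS11 minus KMS34, limma adjusted p = 0.979), and without KMS18 the range was 1.34-fold. Its ligands are CCL27 and CCL28. CCL27 spanned 1.29-fold and was highest in OPM2 (F test, adjusted p = 0.00540), and CCL28 did not pass (1.13-fold, adjusted p = 0.279).

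CX3CR1, the receptor of CX3CL1, was highest in OPM2, at 102.3 with the knockdown and 102.4 in the control, and spanned 1.72-fold (F test, adjusted p = 0.000183). Its ranges in the other lines were 56.4 to 76.1 with the knockdown and 63.1 to 74.4 in the controls. CCR7, which guides lymphocytes to lymph nodes, was lowest in KMS34, at 56.8 with the knockdown and 60.3 in the control, against 76.0 to 91.9 and 81.7 to 100.7 in the other lines (F test, adjusted p = 0.000264). CXCR3 spanned 1.27-fold with its highest line mean in OPM2 (F test, adjusted p = 0.0298). CXCR5, the receptor for CXCL13, had an adjusted p of 0.0529 in the F test, and CCR6 (0.109) and CXCR6 (0.654) also did not pass. XCR1, the receptor of the XC chemokines, passed with 1.21-fold (F test, adjusted p = 0.0435).

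**Figure D3:**
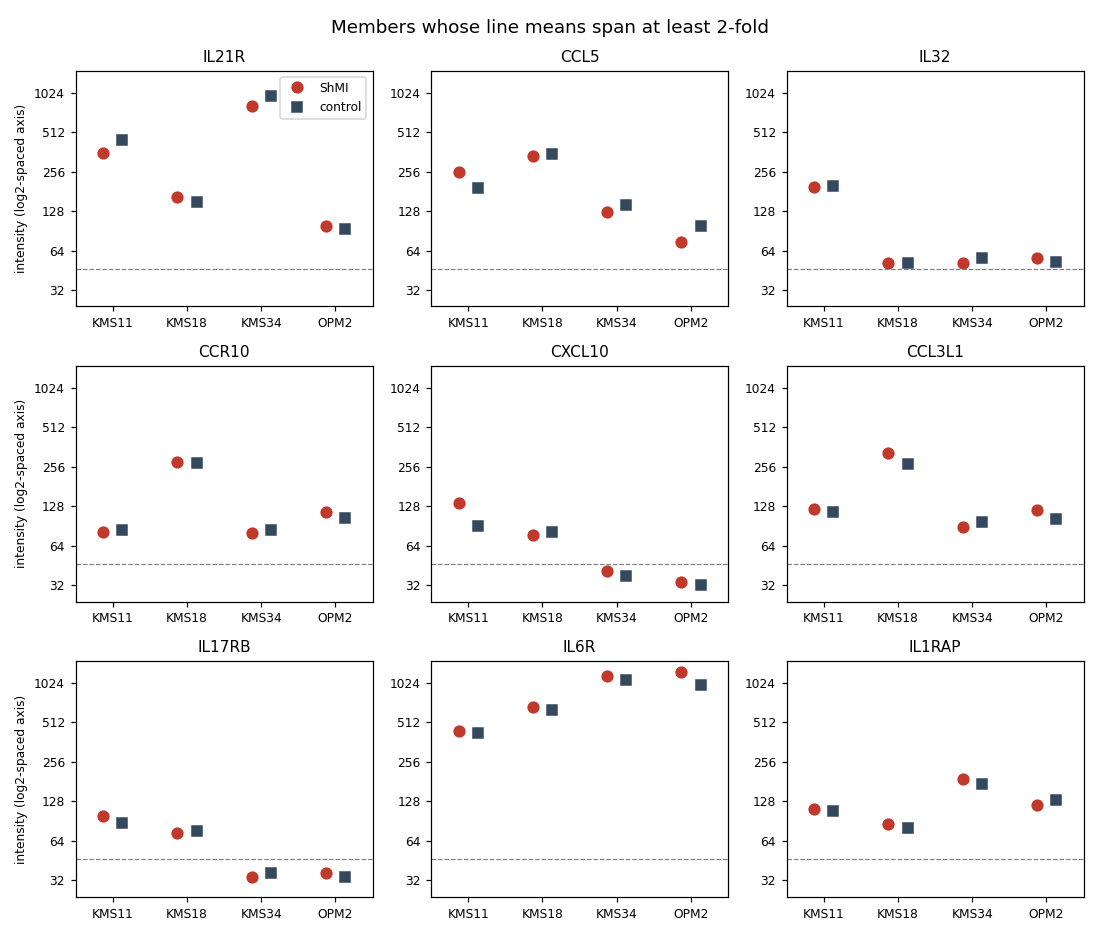
Panels show the 9 members whose line means span at least 2-fold, with intensity on a log2-spaced axis, ShMI as red circles left of the control as dark squares in each line, 1 array per point. The dashed line is the brightness limit of 46.7. On both arrays of the line, IL21R is highest in KMS34, CCR10 and CCL3L1 in KMS18 and IL32 in KMS11.

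Of 27 interleukins, 11 were tested. Among these, 5 differed between lines (45.5%, and 75.7% of all genes) and 1 spanned at least 2-fold (9.09%, and 18.8%). IL32, a cytokine of lymphocytes and epithelium that induces other inflammatory cytokines, had ShMI and control intensities of 197 and 198 in KMS11, 51.4 and 51.6 in KMS18, 51.5 and 56.2 in KMS34 and 55.95 and 51.9 in OPM2. KMS11 was higher than the mean of the other lines by 1.90 on the log2 scale with an SE of 0.0745 (limma adjusted p = 1.52e-09). The other 3 lines were not told apart (limma contrasts, adjusted p = 0.587 to 0.988). Without KMS11 the range of IL32 was 1.05-fold and did not pass (F test, adjusted p = 0.764). IL16, a chemoattractant of CD4+ cells, was highest in KMS18, at 101.0 with the knockdown and 106.6 in the control, and lowest in OPM2, at 79.7 and 72.6 (F test, adjusted p = 0.00478).

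The ligands of the IL-17 family spanned little. IL17C passed with 1.28-fold and IL17D with 1.27-fold (F test, adjusted p = 0.0131 and 0.0251), while IL17B and IL25 did not (0.310 and 0.518). IL19, of the IL-10 family, had an adjusted p of 0.0434 in the F test and a span of 1.28-fold. IL11, which signals through gp130, IL13, which shares the receptor chain IL4R with IL-4, IL27 and IL34, a ligand of CSF1R, did not pass (adjusted p of 0.404, 0.763, 0.144 and 0.429).

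Of 21 interleukin receptor chains, 12 were tested. Among these, 7 differed between lines (58.3%, and 75.7% of all genes) and 4 spanned at least 2-fold (33.3%, and 18.8%). Both counts include IL17RB, which passed the limit only through KMS11 and KMS18. With line means under the limit set to it, IL17RB spans less than 2-fold. IL21R, which pairs with the common gamma chain to bind IL-21, had ShMI and control intensities of 356 and 445 in KMS11, 163 and 151 in KMS18, 808 and 960.0 in KMS34 and 98.4 and 92.8 in OPM2. All 4 lines differed from each other, in the order KMS34, KMS11, KMS18 and OPM2, and the 2 nearest were KMS18 and OPM2 (log2 difference 0.71 for KMS18 minus OPM2, SE 0.116, limma adjusted p = 0.000296). The line means spanned 9.22-fold (F test, adjusted p = 9.7e-10), 4.17-fold without KMS34 and 5.62-fold without OPM2. The ligand IL21 had 22.6 to 23.3 with the knockdown and 22.4 to 23.8 in the controls, under the limit on all arrays.

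IL4R, which binds IL-4 and IL-13, is the direct neighbour of IL21R on chromosome 16 and had another order of lines. Its ShMI and control intensities were 268 and 277 in KMS11, 179.7 and 207 in KMS18, 139.8 and 142 in KMS34 and 206 and 245 in OPM2. KMS34 was lowest, with a log2 difference of -0.69 from the mean of the other lines (limma adjusted p = 1.33e-05), where that of IL21R was 2.28 (3.04e-09). KMS11 was highest in IL4R, and KMS18 and OPM2 were not told apart (log2 difference -0.22 for KMS18 minus OPM2, limma adjusted p = 0.0825). Of its ligands, IL4 stayed under the limit with 27.1 to 30.8 with the knockdown and 25.9 to 30.5 in the controls, and IL13 had 49.6 to 58.5 with the knockdown and 45.7 to 52.99 in the controls.

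IL6R, the chain that binds IL-6 before gp130 joins the complex, had ShMI and control intensities of 439.9 and 423 in KMS11, 676 and 637 in KMS18, 1161 and 1082 in KMS34 and 1245 and 986 in OPM2. KMS34 and OPM2 were highest and were not told apart (log2 difference 0.02 for KMS34 minus OPM2, limma adjusted p = 0.906), followed by KMS18 and then KMS11. KMS11 had a log2 difference of -1.11 from the mean of the other lines with an SE of 0.0786 (limma adjusted p = 2.23e-07). The span was 2.60-fold, and 1.71-fold without KMS11.

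IL1RAP, the shared partner chain of the IL-1, IL-33 and IL-36 receptors, had ShMI and control intensities of 111 and 107 in KMS11, 85.5 and 80.04 in KMS18, 191 and 175 in KMS34 and 121 and 132 in OPM2. KMS34 was highest, by 0.80 on the log2 scale against the mean of the others (limma adjusted p = 3.89e-06), and KMS18 lowest. OPM2 and KMS11 lay between and were not told apart (log2 difference -0.21 for KMS11 minus OPM2, limma adjusted p = 0.0816). Its partners IL1RL1, the IL-33 receptor, and IL1RL2, the IL-36 receptor, stayed under the limit on all arrays.

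In the IL-17 receptor family, IL17RB, which binds IL-25 and IL-17B, had ShMI and control intensities of 98.9 and 87.6 in KMS11, 73.9 and 75.6 in KMS18, 34.2 and 36.4 in KMS34 and 36.5 and 33.8 in OPM2. It shared with CXCL10 the split of KMS11 and KMS18 above KMS34 and OPM2, and likewise passed the limit only through KMS11 and KMS18. Against the limit of 46.7, KMS11 was at least 1.99-fold higher, and KMS34 and OPM2 were not told apart (limma adjusted p = 0.964). IL17RA, the chain common to the family, had ShMI and control intensities of 297 and 257 in KMS11, 216 and 204 in KMS18, 218 and 216 in KMS34 and 332 and 321 in OPM2, highest in OPM2, then KMS11 (F test, adjusted p = 0.000106). IL17RC, the partner of IL17RA for IL-17A and IL-17F, passed with 1.31-fold (F test, adjusted p = 0.00580), while IL17RD, IL17RE and IL17REL did not (adjusted p of 0.889, 0.649 and 0.800). IL9R (0.0725) and IL20RB (0.0707) did not pass either.

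Of the colony-stimulating factors and receptors all 4 were tested and 1 differed (25%, and 75.7% of all genes). CSF3, the neutrophil growth factor G-CSF, was lowest in KMS11, at 100.9 with the knockdown and 111.5 in the control, and its span was 1.30-fold (F test, adjusted p = 0.0138). CSF1 (0.136), its receptor CSF1R (0.107) and CSF3R (0.181) did not pass. The secreted IL-18 antagonist IL18BP did not pass either (adjusted p = 0.0757). IL4I1, a secreted L-amino acid oxidase that carries an interleukin symbol only by its history, was higher in KMS11 and OPM2 than in KMS18 and KMS34, with ShMI and control intensities of 329.8 and 282 in KMS11, 221 and 225 in KMS18, 205 and 196 in KMS34 and 281 and 314 in OPM2 (F test, adjusted p = 0.000291).

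The 55 members under the limit had intensities up to 73.8. In 45 of them no array was above 46.7, among them CXCL8, CXCL13, CCL20, IL2, IL7R, IL18 and IL33. The other 10 were above it on at least 1 array: CCL2, CCL26, CXCL16, CCR2, CXCR2, IL10, IL15, IL18R1, IL36RN and the noncoding IL10RB-DT. With no limit, 38 of 112 members passed the F test, 7 of them from among the 55, against 59.5% of all genes. The 10 were picked by an array above the limit, so their F tests are not given as support. IL10, which restrains inflammation, had ShMI and control intensities of 68.4 and 73.8 in KMS11, 36.6 and 37.00 in KMS18, 33.9 and 35.4 in KMS34 and 40.7 and 43.8 in OPM2. Both KMS11 arrays of IL10 lay above the other 6. IL15, a growth factor of T and NK cells, had 58.9 and 58.8 in KMS11, 42.7 and 41.6 in KMS18, 54.00 and 47.9 in KMS34 and 34.1 and 33.1 in OPM2. CCL2, which attracts monocytes, had 43.5 and 31.6 in KMS11, 31.02 and 32.9 in KMS18, 50.8 and 51.4 in KMS34 and 32.4 and 31.01 in OPM2. CXCL16, the ligand of CXCR6, had 45.4 and 55.5 in KMS11, 34.9 and 30.9 in KMS18, 32.6 and 36.1 in KMS34 and 34.6 and 34.6 in OPM2.

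Genes that act with these receptors were read from lists that hold no member. Of 92 listed genes 58 had a named row and 47 were tested, of which 40 differed between lines and 10 spanned at least 2-fold (75.7% and 18.8% of all genes). All 8 tested JAK and STAT genes differed. JAK3, the kinase bound to the common gamma chain, had ShMI and control intensities of 329 and 306 in KMS11, 205 and 210.2 in KMS18, 246 and 280.3 in KMS34 and 59.6 and 66.6 in OPM2, with both OPM2 arrays below the others (F test, adjusted p = 3.11e-09). STAT4, which acts downstream of IL-12, was highest in KMS34, at 201 with the knockdown and 208 in the control, against 39.5 to 67.7 and 41.1 to 72.6 in the other lines, where KMS18 and OPM2 had line means under the limit. STAT3, the main STAT of IL-6 and IL-21, had 1176 and 1073 in KMS11, 491 and 465 in KMS18, 778 and 829 in KMS34 and 542 and 510.3 in OPM2 (F test, adjusted p = 4.22e-07). Its target and inhibitor of gp130 signalling, SOCS3, had 248 and 286 in KMS11, 113 and 125 in KMS18, 156 and 167 in KMS34 and 101 and 102 in OPM2 (F test, adjusted p = 1.78e-07). Both STAT3 and SOCS3 had their highest values in KMS11, followed by KMS34.

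Downstream of chemokine receptors, 6 of 7 named genes were tested and all 6 differed, where 75.7% of all genes did. DOCK2, which activates Rac for lymphocyte migration, had ShMI and control intensities of 302 and 336 in KMS11, 537 and 563 in KMS18, 414 and 421 in KMS34 and 54.7 and 45.3 in OPM2 and spanned 11.05-fold (F test, adjusted p = 2.44e-10). RGS1 and RGS16, which switch off G protein signals, were both highest in KMS11. RGS1 had 349 and 284 in KMS11, 59.5 and 58.5 in KMS18, 90.4 and 96.2 in KMS34 and 33.2 and 47.7 in OPM2 and RGS16 had 599 and 525 in KMS11, 197 and 177 in KMS18, 260.2 and 305 in KMS34 and 202 and 222 in OPM2 (F test of RGS16, adjusted p = 3.81e-07), and the OPM2 line mean of RGS1 lay under the limit. All 3 tested atypical receptor genes differed, the scavenger of CXCL12 ACKR3 with a span of 1.49-fold (F test, adjusted p = 0.00121). Among other cytokine receptors LIFR, a partner of gp130, was highest in OPM2, at 373 with the knockdown and 343 in the control, against 43.1 to 140.4 and 53.0 to 155 in the other lines (F test, adjusted p = 2.04e-09). FLT3LG, the ligand of the receptor FLT3, spanned 2.45-fold with its lowest line mean in OPM2 (F test, adjusted p = 5.15e-07). MYD88, the adaptor of the IL-1 receptor family, was highest in KMS18, at 231 with the knockdown and 236 in the control (F test, adjusted p = 1.4e-06).

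The second comparison asked what the MMSET I knockdown did to the members. It used the same fit with cell line as a block, so that the 4 lines are the replicates. No member passed limma's threshold, where 0.117% of all genes did. At an unadjusted p under 0.05 stood 1 of 57 members (1.75%), against 8.41% of all tested genes. The median log2 difference of ShMI minus control was 0.0037 over the members and -0.0033 over all genes. The mean was above 0 in 30 of 57 members and in 48.4% of all genes. The same sign in all 4 lines was seen in 8 members (14.0%), against 17.0% of all genes. Members above 0 were IL20RB, IL6R, IL17RA, IL17B and the pseudogene CXCR2P1, and members below 0 were IL4R, CCL21 and CCL27.

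IL20RB, the chain shared by the receptors of IL-19, IL-20 and IL-24, was the member at an unadjusted p under 0.05. Its intensity averaged 55.3 ± 4.96 in ShMI arrays and 47.9 ± 5.50 in controls (SD, n = 4 each). The ShMI and control values were 48.7 and 46.6 in KMS11, 56.5 and 45.4 in KMS18, 55.6 and 43.7 in KMS34 and 60.6 and 55.98 in OPM2. The log2 difference was 0.21 with an SE of 0.0698 (limma, unadjusted p = 0.0108 and adjusted p = 0.447). It was above 0 in 4 of 4 lines, at 0.06 for KMS11, 0.32 for KMS18, 0.35 for KMS34 and 0.11 for OPM2. An exact two-sided permutation test that exchanged the labels within lines gave p = 0.125, the smallest it can give with 4 lines. The IL20RB values lie close to the limit of 46.7. Of its ligands, IL19 reached that limit on average and was tested, and IL20 and IL24 stayed under it on all arrays.

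**Figure D4:**
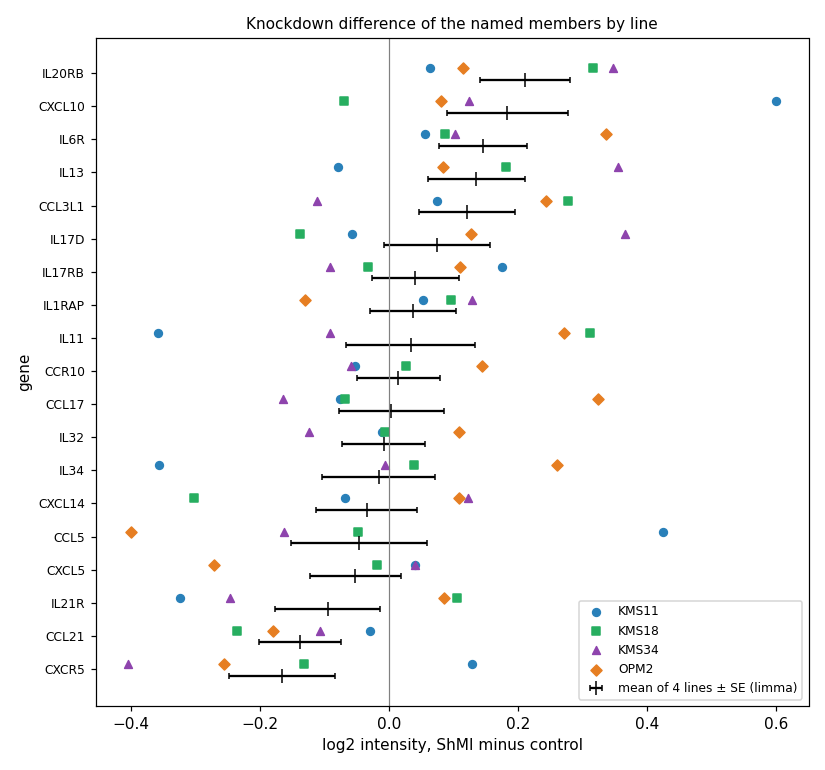
Rows are the named members and the horizontal axis is the log2 intensity of ShMI minus control. Coloured symbols are the 4 lines (1 pair of arrays each) and the black bars are the mean of 4 lines ± SE from limma. Symbols of a gene lie on both sides of 0 for most rows, with IL20RB, IL6R and CCL21 as exceptions, and the CXCL10 value of 0.60 in KMS11 is the farthest from 0.

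Members that separated the lines had mean knockdown differences on both sides of 0, and none passed. IL6R had a mean log2 difference of 0.14 with an SE of 0.0681 (limma adjusted p = 0.605), at 0.06 for KMS11, 0.09 for KMS18, 0.10 for KMS34 and 0.34 for OPM2. Without OPM2 its mean was 0.08. IL21R had a difference of -0.10 (limma adjusted p = 0.791), below 0 in KMS11 (-0.32) and KMS34 (-0.25) and above it in the other 2 lines. IL4R was below 0 in 4 of 4 lines with a mean of -0.13 (limma adjusted p = 0.626), and CXCR4 had a mean of -0.11 (0.691). IL32 had a difference of -0.01 (0.982), CCR10 of 0.01 (0.969), IL1RAP of 0.04 (0.915), IL17RB of 0.04 (0.904) and CCL3L1 of 0.12 (0.708).

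For CXCL10 and CCL5 the knockdown differences of the lines lay far apart, and with 1 pair of arrays per line these have no test. CXCL10 was at 0.60 for KMS11, -0.07 for KMS18, 0.12 for KMS34 and 0.08 for OPM2, a mean of 0.18 (limma adjusted p = 0.638) that was 0.04 without KMS11. CCL5 was at 0.43 for KMS11, -0.05 for KMS18, -0.16 for KMS34 and -0.40 for OPM2, a mean of -0.05 (limma adjusted p = 0.935) that was 0.07 without OPM2. In KMS11 the CXCL10 intensity was 136 with the knockdown and 89.8 in the control, 1.52-fold higher, and that of CCL5 was 256 with the knockdown and 190.4 in the control. In OPM2 CCL5 was at 74.0 with the knockdown and 97.7 in the control.

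Within lines, CXCL10 in KMS11 was the 1 member value of at least 1.5-fold in either direction. In KMS11 0.270% of all genes were that much higher and 0.243% lower. In the other lines 0 members reached that size, against 0.0450% of all genes higher and 0.0810% lower in KMS18, 0.117% and 0.135% in KMS34 and 0.0900% and 0.0990% in OPM2. Quantile normalization gave a log2 difference of 0.52 for CXCL10 in KMS11 and centring one of 0.58, both under 1.5-fold. The median absolute log2 difference of the members was 0.109 for KMS11, 0.0823 for KMS18, 0.122 for KMS34 and 0.109 for OPM2. Over all genes it was 0.109 for KMS11, 0.0981 for KMS18, 0.0936 for KMS34 and 0.101 for OPM2.

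The highest and lowest members of each line were taken by log2 difference of ShMI minus control. In KMS11, CXCL10 (0.60) and CCL5 (0.43) were highest, and IL11 (-0.36) and IL34 (-0.36) lowest. In KMS18, IL20RB (0.32) and IL11 (0.31) were highest, and CXCL14 (-0.30) and CCL21 (-0.24) lowest. IL17D (0.37) and IL13 (0.36) stood highest in KMS34, and CXCR5 (-0.41) and IL21R (-0.25) lowest. OPM2 had IL6R (0.34) and CCL17 (0.32) at the top, and CCL5 (-0.40) and CXCL5 (-0.27) at the bottom. IL11 and CCL5 stood at opposite ends in 2 lines each, the other genes named here in 1 line each, and none of these values has a replicate.

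The list genes did not pass for the knockdown either. Of the 47 tested, 0 passed limma's threshold, and 23 had a mean above 0 and 24 below. At an unadjusted p under 0.05 stood 3 of the 47, a lower share than the 8.41% of all tested genes. The feedback gene SOCS7 had a mean log2 difference of -0.29 (limma, unadjusted p = 0.00133, adjusted p = 0.257), at -0.42 for KMS11, -0.16 for KMS18, -0.43 for KMS34 and -0.17 for OPM2. The leptin receptor gene LEPR had 0.18 (0.0165 and 0.491), and TAB2, an adaptor of IL-1 signalling, had 0.18 (0.0146 and 0.481). Each of these 3 had the same sign in 4 of 4 lines.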

How the data were processed

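The table the authors deposited holds 1 intensity on a linear scale for each of 44629 transcript clusters on each of 8 arrays, made with GeneSpring per the series text. How background, summarization and normalization were handled is not given in the sources used here. The linear scale was judged from the range. Nearly equal quartiles (medians of 49.3 to 53.5) point to a common scaling, which would hide a shift of all genes. The number of arrays limits precision.

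The platform annotation gave 1 symbol for 15835 rows, several for 0 and none for 28794. The symbols cover 14812 genes, each read from its brightest row, and all 112 members had 1 row and matched the RefSeq table of GRCh38 by gene identifier. Log2 intensities were fitted with limma 3.58.1 in R 4.3.3 (lmFit, eBayes) with cell line as a fixed block, for 11109 genes above the 25th percentile of mean log2. Tests are two-sided with Benjamini-Hochberg adjustment over all of them.

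Lines pair the arrays per the labels: deviations from the group mean correlated at 0.925 to 0.932 with those of the same line and at -0.135 at most with others. Nothing says that cultures were replicated.

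Named were members spanning at least 2-fold between lines, those at an unadjusted knockdown p under 0.05 or with 1 sign in 4 lines and a mean of at least 0.15, the 2 highest and lowest per line, and dim members with 1 array above the limit. The other tested members are given with their role, and list genes were named by range or an unadjusted p under 0.05, ACKR3 after its values were seen. Members, lists and tests were chosen with earlier results of these data known. Alternatives were other scalings, filters, row averages, variance models and blocks, and leaving out lines.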

Additional observations from a re-analysis of the deposited data

Results flagged for a closer look

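For the 19 named members, the 4 ShMI levels, the 4 control levels and the 4 knockdown differences were each examined for 1 line far from the other 3, by Dixon's test at 95%. Of 57 such groups of values 5 stood out, where chance gives about 1 in 20 for genes not chosen by their values. These members were named for wide line ranges or extreme knockdown differences, so the count is a description and not a test. IL32 in KMS11 was far above the other lines with the knockdown (log2 level 7.62) and in the control (7.63). The control level of CCL3L1 in KMS18 stood above the others (8.06), by a gap close to the critical value. The ShMI level of IL34 in KMS11 stood below them (5.43, an intensity of 43.0, under the brightness limit). The IL6R knockdown difference in OPM2 (0.34) stood above those of the other 3 lines. These lines were compared by 1 array each.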

How the results depend on the processing

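No member passed limma's threshold for the knockdown under the 12 alternatives, and at an unadjusted p under 0.05 there were 0 to 6 of them. The count of all genes past the threshold, 13, was 7 with centring, 4 with no limit on dim genes, 29 with trend and robust variances, 1 to 2 without 1 line, 0 with no replicate block and 3 with a random replicate block. The replicate block is the cell line, which pairs the arrays, and it changed no call of a member. Between lines, 32 members passed, 17 with a 50th percentile limit, which tests only 20 members, and 27 to 42 under the other 9 alternatives. Of all genes, 8412 passed, 6528 with the 50th percentile limit and 7156 to 9052 under the other 9. The highest counts came with centring, 42 of 57 members and 9052 of 11109 genes. There the share of members lay closer to that of all genes than in the main fit. From 6 to 10 members spanned at least 2-fold under all 12. The F test of IL32 was lost without KMS11. IL21R, IL6R, IL1RAP, CCR10, CCL5 and CCL3L1 kept theirs wherever they were tested. This adds no support, since these genes were picked by the same line means. Without KMS18 the range fell to 1.27-fold for CCL3L1 and 1.34-fold for CCR10. The F tests of CXCL10 and IL17RB are not given as support either, since these genes passed the limit only through KMS11 and KMS18. The count of members of at least 1.5-fold within a line was 1, and 0 with quantile normalization and with centring. The CCL5 knockdown difference was -0.2042 to 0.0712 without 1 line, reversed to 0.0712 without OPM2. Counts per line under other scalings were chosen after seeing the data: KMS34 had 3 members higher and 15 lower with quantile normalization (21.6% and 23.3% of all genes) and 3 and 19 with centring (23.4% and 22.4%), and OPM2 14 and 9 (26.9% and 23.3%), and 21 and 9 (29.6% and 23.1%). Without detection calls, levels near the limit cannot be told from background.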
